A study of Homo sapiens with 12 samples.

Results

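The BCL2 family genes described here are 10 genes of the mitochondrial route of apoptosis. BCL2, BCL2L1 and MCL1 are survival genes, BCL2L11, BBC3, PMAIP1, BIK and BMF are BH3-only death genes, and BAX and BAK1 are effectors. They were taken by gene symbol, with no value entering the rule, though with earlier results of these data known. All 10 were found among the 26364 gene rows and had enough counts to be tested, as had 14184 genes in all. RNA was sequenced from MDA-MB-231, an established human breast cancer cell line of the mesenchymal, triple-negative type. The 4 groups were a combination of DEX and the STAT inhibitor SH4-54, 1 µM dexamethasone alone (DEX, a synthetic glucocorticoid), 8 µM SH4-54 alone, and no drug. Each held 3 wells, treated for 24 h. The doses within the combination are not stated separately, the treatment tag of the SH4-54 wells spells the compound SH5-54 where the titles have SH4-54, and no vehicle is given for the no-drug wells. The replicates are wells of 1 line, and the p-values below rest on how far such wells differ.

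In the mitochondrial pathway, survival proteins such as MCL1 hold the effectors BAX and BAK1 in check, and BH3-only proteins bind the survival proteins or the effectors through a short helix, the BH3 domain. Once active, BAX and BAK1 permeabilise the outer mitochondrial membrane, and released cytochrome c starts the caspase cascade. Glucocorticoids kill many lymphoid cells by this route, while in epithelial tumour cells they are better known for survival effects, and STAT3 is a known activator of survival genes of the family.

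The BH3 core is what joins the 10 genes, and its coding sequence is shown to let the members be compared. The search was for leucine, any 3 residues, glycine or alanine, then aspartate. Each member's principal coding transcript (GENCODE v29, GRCh38) held exactly 1 match. The capitals mark the 18 bases of the core, on the coding strand, 5′ to 3′.
BCL2: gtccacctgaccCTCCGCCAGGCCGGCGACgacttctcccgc
BCL2L1: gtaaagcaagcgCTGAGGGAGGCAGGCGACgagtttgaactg
MCL1: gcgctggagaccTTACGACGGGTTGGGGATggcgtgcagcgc
BCL2L11: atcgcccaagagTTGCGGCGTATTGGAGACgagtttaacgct
BBC3: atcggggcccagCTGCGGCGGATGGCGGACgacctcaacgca
PMAIP1: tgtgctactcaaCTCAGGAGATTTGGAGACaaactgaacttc
BIK: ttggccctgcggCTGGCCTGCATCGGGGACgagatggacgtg
BMF: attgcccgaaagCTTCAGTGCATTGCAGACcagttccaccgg
BAX: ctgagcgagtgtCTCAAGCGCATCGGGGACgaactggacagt
BAK1: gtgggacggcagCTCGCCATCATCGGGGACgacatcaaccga
The residue before the aspartate was alanine in BBC3 and BMF and glycine in the other 8 members. The cores lie in BCL2 at chr18:63318361-63318378 (minus strand, exon 2), BCL2L1 at chr20:31721934-31721951 (minus strand, exon 2), MCL1 at chr1:150578877-150578894 (minus strand, exon 1), BCL2L11 at chr2:111150103-111150120 (plus strand, exon 4), BBC3 at chr19:47226591-47226608 (minus strand, exon 3), PMAIP1 at chr18:59902673-59902690 (plus strand, exon 2), BIK at chr22:43127716-43127733 (plus strand, exon 3), BMF at chr15:40104207-40104224 (minus strand, exon 4), BAX at chr19:48955787-48955804 (plus strand, exon 3) and BAK1 at chr6:33575399-33575416 (minus strand, exon 4). The shortest protein was that of PMAIP1, with 54 residues, and the longest that of MCL1, with 350 residues.

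The combination libraries held 26280158 to 35758236 counted reads, the DEX libraries 26040956 to 29426776, the SH4-54 libraries 25577213 to 28864061 and the no-drug libraries 28439725 to 31552360. Levels below are CPM, counts scaled to the library's size, with the SD over 3 wells. Changes are log2 fold changes ± SE with p-values from edgeR's quasi-likelihood test, adjusted by Benjamini-Hochberg over all 14184 genes, and a gene rose or fell where the adjusted p was below 0.05. The glucocorticoid target FKBP5 averaged 218 ± 47 CPM with both compounds, 326 ± 17 CPM with DEX, 54.3 ± 2.3 CPM with SH4-54 and 53.9 ± 1.6 CPM without drug. Another such target, TSC22D3, averaged 75.5 ± 13, 85.9 ± 1.9, 7.01 ± 1.1 and 6.81 ± 0.5 CPM in the same order. HSPA6, a heat shock gene, had 150, 483 and 156 CPM in the combination wells, against 24 ± 4.1 CPM with SH4-54, 0.394 ± 0.22 CPM with DEX and 0.408 ± 0.13 CPM without drug, so that combination replicate 2 stood apart. The glucocorticoid receptor gene NR3C1 averaged 276 CPM with both compounds, 275 CPM with DEX, 480 CPM with SH4-54 and 494 CPM without drug. STAT3 averaged 206, 228, 196 and 200 CPM in the same order, STAT5B 49.7, 49.7, 53.3 and 55.7 CPM, and STAT5A 12.3, 9.98, 10.7 and 10.6 CPM. Among the chosen markers of the line, VIM, CD44, AXL and CAV1 were at 274 CPM or above in every library, but SPARC was not. For VIM, CD44, AXL and CAV1 the DEX and no-drug wells did not overlap. VIM averaged 853 CPM with DEX and 1325 CPM without drug, CD44 279 and 429 CPM, AXL 669 and 904 CPM and CAV1 1562 and 1020 CPM, and the part of these shifts in the member values was not tested. SPARC, also chosen as a marker of the line, was nearly absent, at no more than 0.3 CPM in any library. The luminal markers ESR1 and PGR were at most 0.233 and 0.45 CPM. The luminal markers CDH1, EPCAM and ERBB2, from the same list, were detected in every library. CDH1 lay at 5.29 to 15.1 CPM, EPCAM at 17.3 to 23.2 CPM and ERBB2 at 73.8 to 90.4 CPM. Of the markers reported here of blood, fibroblast and endothelial cells, COL1A1 was highest at up to 1.56 CPM, and averaged 0.825 CPM with DEX and 1.26 CPM without drug. The fibroblast marker DCN had 21, 33 and 27 reads with DEX, against 0, 0 and 1 reads without drug. LUM, PECAM1 and PTPRC were at most 0.729, 1.2 and 0.733 CPM, and CD3E and CDH5 stayed at or below 0.0387 CPM. Total RNA of whole wells cannot tell fewer cells of a kind from less RNA per cell.

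With DEX alone, members moved in both directions. The survival genes MCL1 and BCL2L1 rose, by 1.54-fold and 1.32-fold, and BCL2, BCL2L11, PMAIP1, BAX and BMF fell. So 2 of the 10 members rose and 5 fell, while 21.9% of all genes rose and 23.2% fell. The share of members that rose was close to that background, and the share that fell was above it, with no test of that difference made. The 10 members had a median log2 change of -0.25, against -0.011 over all genes. BBC3, BAK1 and BIK did not pass (edgeR adjusted p of 0.0861, 0.42 and 0.111). For all 10 members the DEX wells and the no-drug wells did not overlap. The share of all genes with such a separation was not counted, so that count has no background to be read against.

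**Figure D1:**
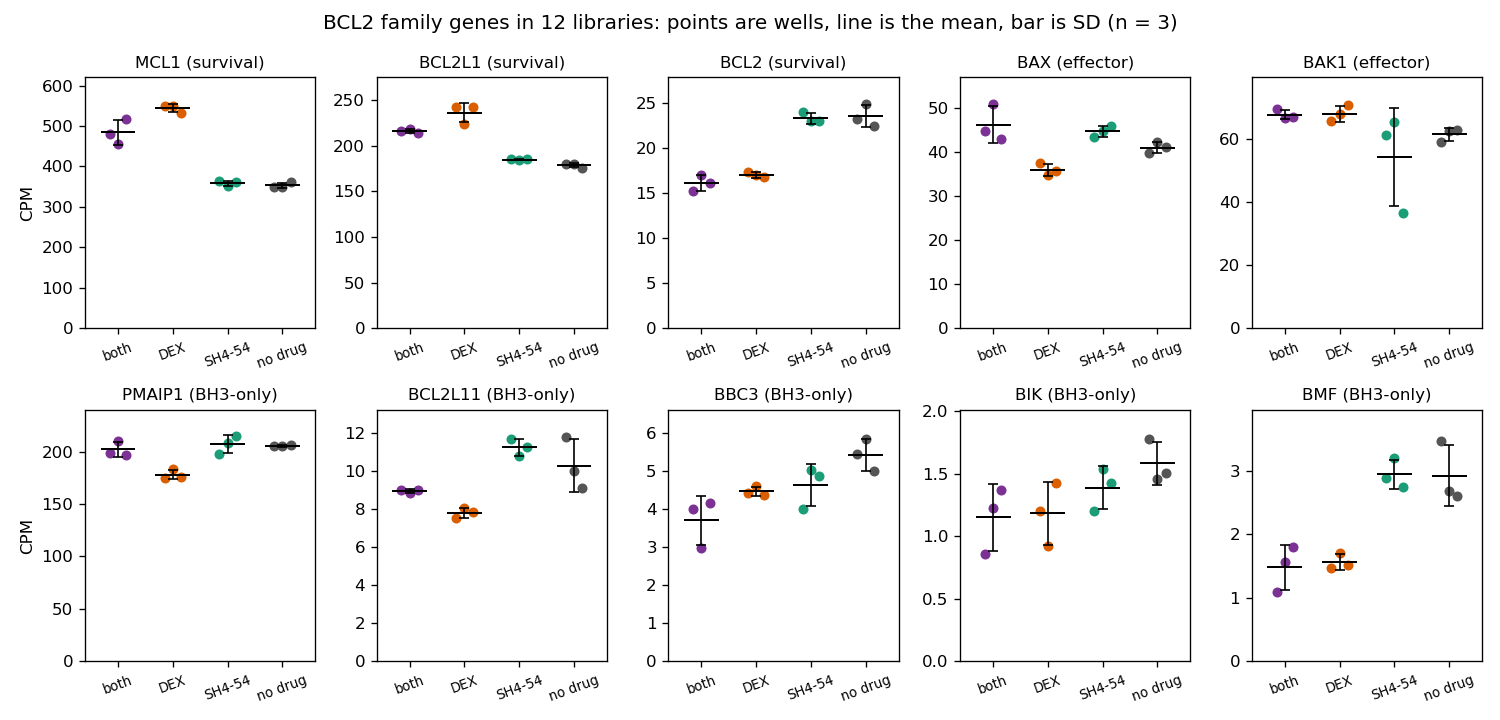
Level of each member in CPM (vertical axis, linear from 0, own scale per gene) in the 4 groups. Points are wells, and lines with bars are the mean and SD of 3 wells. MCL1 lies between 532 and 550 CPM in the DEX wells, above the other groups, and BAK1 has 1 low SH4-54 well at 36.5 CPM.

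MCL1 encodes a short-lived survival protein. It had 480, 455 and 517 CPM in the combination wells, 550, 549 and 532 CPM in the DEX wells, 363, 352 and 361 CPM in the SH4-54 wells and 350, 349 and 361 CPM in the no-drug wells. The DEX wells were above all others, the combination wells came next, and the SH4-54 and no-drug wells overlapped. Its change was 0.62 ± 0.04 with DEX against no drug (edgeR adjusted p = 8.32e-09), 0.46 ± 0.04 with both compounds against no drug (edgeR adjusted p = 3.2e-07) and 0.43 ± 0.04 with both compounds against SH4-54 (edgeR adjusted p = 6.02e-07). With both compounds it was lower than with DEX alone, by a change of -0.17 ± 0.039 (edgeR adjusted p = 0.00685).

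BCL2L1 encodes the survival protein BCL-XL from its long isoform and a death-promoting product from a short one, which gene-level counts do not tell apart. It had 216, 218 and 214 CPM with both compounds, 242, 224 and 242 CPM with DEX, 185, 184 and 185 CPM with SH4-54 and 180, 180 and 176 CPM without drug. The order of the groups was that of MCL1, with no overlap between any pair of groups. BCL2L1 rose by 0.40 ± 0.032 with DEX (edgeR adjusted p = 1.17e-07) and by 0.27 ± 0.032 with both compounds (edgeR adjusted p = 8.38e-06), each against no drug. Against DEX alone the combination changed it by -0.13 ± 0.032 (edgeR adjusted p = 0.011), and against SH4-54 alone by 0.23 ± 0.033 (edgeR adjusted p = 5.79e-05).

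BCL2, the founding survival gene of the family, moved opposite to MCL1 and BCL2L1. Its levels were 15.3, 17 and 16.2 CPM with both compounds, 17.4, 17 and 16.8 CPM with DEX, 24, 23 and 23 CPM with SH4-54 and 23.3, 24.9 and 22.5 CPM without drug. Wells with DEX, alone or combined, were all below wells without it, and within each of those sets the groups overlapped. The change was -0.46 ± 0.054 with DEX against no drug (edgeR adjusted p = 5.19e-06), -0.54 ± 0.053 with both compounds against no drug (edgeR adjusted p = 1.2e-06) and -0.53 ± 0.054 with both against SH4-54 (edgeR adjusted p = 2e-06). Between both compounds and DEX alone it was -0.08 (95% interval -0.20 to 0.04, edgeR adjusted p = 0.321).

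BCL2L11 encodes BIM, a BH3-only protein that binds all main survival proteins. It had 9.01, 8.84 and 9.02 CPM with both compounds, 7.54, 8.05 and 7.84 CPM with DEX, 11.7, 10.8 and 11.3 CPM with SH4-54 and 11.8, 10 and 9.1 CPM without drug. The DEX wells were lowest and tight, and the no-drug wells were the most spread. BCL2L11 fell with DEX, by a change of -0.40 ± 0.087 against no drug (edgeR adjusted p = 0.00153), and was lower with both compounds than with SH4-54, at -0.33 ± 0.085 (edgeR adjusted p = 0.00614). With both compounds against no drug the change was -0.20 ± 0.085 (edgeR adjusted p = 0.0656). It passed in 1 of 19 alternatives, without no-drug replicate 3, at -0.29 (edgeR adjusted p = 0.0141). Across the alternatives the change ran from -0.29 to -0.10, with edgeR or DESeq2 adjusted p up to 0.352. In lymphoid cells, glucocorticoids are known to induce this gene.

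PMAIP1 encodes NOXA, which prefers MCL1 among the survival proteins. It had 199, 210 and 197 CPM with both compounds, 175, 183 and 176 CPM with DEX, 198, 208 and 215 CPM with SH4-54 and 205, 205 and 206 CPM without drug. The DEX wells were below all other wells, and the other 3 groups overlapped. PMAIP1 fell with DEX alone by a change of -0.21 ± 0.036 (edgeR adjusted p = 0.000241), and was higher with both compounds than with DEX, at 0.18 ± 0.036 (edgeR adjusted p = 0.00205). With both compounds against no drug the change was -0.02 (95% interval -0.10 to 0.05, edgeR adjusted p = 0.621).

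BMF, whose BH3-only protein binds survival proteins after stress to the cytoskeleton, showed the largest fall of the members on the log2 scale. It had 1.09, 1.56 and 1.79 CPM with both compounds, 1.47, 1.71 and 1.51 CPM with DEX, 2.89, 3.19 and 2.74 CPM with SH4-54 and 3.47, 2.68 and 2.6 CPM without drug. Every well with DEX was below every well without it. The change was -0.90 ± 0.18 with DEX against no drug (edgeR adjusted p = 0.000763), -0.96 ± 0.18 with both compounds against no drug (edgeR adjusted p = 0.000468) and -0.97 ± 0.18 with both against SH4-54 (edgeR adjusted p = 0.000555). BMF was a low gene, and GENCODE v29 lists an antisense gene, BMF-AS1, at its locus, which has no row of its own. Whether reads were counted by strand is not given, so the BMF counts are uncertain.

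BBC3 encodes PUMA, a potent BH3-only protein that many stresses induce. It had 4, 2.97 and 4.15 CPM with both compounds, 4.41, 4.59 and 4.37 CPM with DEX, 3.99, 5.03 and 4.86 CPM with SH4-54 and 5.45, 5.83 and 4.99 CPM without drug. The combination wells were below the DEX and the no-drug wells, and the SH4-54 wells overlapped all 3 other groups. BBC3 fell with both compounds against no drug, by a change of -0.54 ± 0.13 (edgeR adjusted p = 0.00336). Against no drug its log2 change was -0.28 ± 0.13 with DEX (edgeR adjusted p = 0.0861). That change passed in 2 of 19 alternatives, 1 of them without combination replicate 2 (0.044), and the edgeR or DESeq2 adjusted p reached 0.244. BIK, an endoplasmic reticulum BH3-only gene, averaged 1.15 ± 0.27 CPM with both compounds, 1.19 ± 0.25 CPM with DEX, 1.39 ± 0.17 CPM with SH4-54 and 1.58 ± 0.17 CPM without drug, and passed in no comparison.

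BAX, a cytosolic effector that inserts into the outer mitochondrial membrane, was lowest with DEX and highest with both compounds. It had 44.8, 51 and 42.9 CPM with both compounds, 37.5, 34.7 and 35.7 CPM with DEX, 43.4, 44.9 and 45.9 CPM with SH4-54 and 39.7, 42.3 and 41.1 CPM without drug. The combination and SH4-54 wells overlapped, and the DEX wells were below all others. BAX fell with DEX against no drug by a change of -0.19 ± 0.059 (edgeR adjusted p = 0.0162), and was higher with both compounds than with DEX, at 0.36 ± 0.059 (edgeR adjusted p = 0.00063). It rose with both compounds against no drug by 0.17 ± 0.058 (edgeR adjusted p = 0.0271). Combination replicate 2, the well with the most HSPA6, also had the most BAX and the least BBC3 and MCL1 of its group. Without it the BAX change against no drug was 0.10 ± 0.049 (edgeR adjusted p = 0.143), and that call was also lost without no-drug replicate 1 (0.0995) or replicate 3 (0.0611). The BBC3 fall with both compounds and the lower MCL1 against DEX passed in every fit that left out a library. For BAX, the fall with DEX against no drug was lost without DEX replicate 2 (edgeR adjusted p = 0.0678) or no-drug replicate 2 (0.0597).

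BAK1, the effector that resides in the mitochondrial membrane, differed little between groups apart from 1 well. It had 69.6, 66.8 and 67.2 CPM with both compounds, 65.7, 68 and 70.8 CPM with DEX, 61.4, 65.4 and 36.5 CPM with SH4-54 and 59.3, 62.7 and 62.9 CPM without drug. SH4-54 replicate 3 was at 0.615 of the lowest other library, a gap below 0.67 that 2 of 7685 genes above a mean of 20 CPM showed in that library, BAK1 and ANXA2P1. The genes beside BAK1, ITPR3 and UQCC2, had 176 and 52.6 CPM in that well, against 189 and 177 CPM, and 53.5 and 55.2 CPM, in the other SH4-54 wells. All groups share 1 estimate of the spread. With this well the DEX change against no drug was 0.15 ± 0.14 (edgeR adjusted p = 0.42), and without it 0.15 ± 0.042 (edgeR adjusted p = 0.0117). For both compounds against no drug the adjusted p was 0.44 with the well and 0.0159 without it, with a change of 0.14 in each fit. Against SH4-54 the change with both compounds was 0.32 (edgeR adjusted p = 0.0802), and it was 0.41 (0.0464) without SH4-54 replicate 1, 0.47 (0.0186) without replicate 2 and 0.10 without replicate 3. GENCODE v29 lists 2 processed pseudogenes of BAK1, neither with a row of its own, and how reads that map to several places were counted is not stated, so the BAK1 counts are uncertain.

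SH4-54 alone changed no member past the threshold. Of the 10, 0 rose and 0 fell in edgeR's quasi-likelihood test and in the DESeq2 Wald test, and 1, BAX, had an unadjusted p below 0.05, as had 13.1% of all genes. Over all genes 0.268% rose and 0.331% fell. The members' changes ran from -0.23 for BBC3 to 0.13 for BAX and BCL2L11. The 95% intervals were -0.06 to 0.11 for MCL1, -0.02 to 0.11 for BCL2L1, -0.12 to 0.10 for BCL2 and -0.07 to 0.09 for PMAIP1. For BMF, a lower gene, the interval was -0.34 to 0.35, and for BAX 0.00 to 0.25 (edgeR adjusted p = 0.377).

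**Figure D2:**
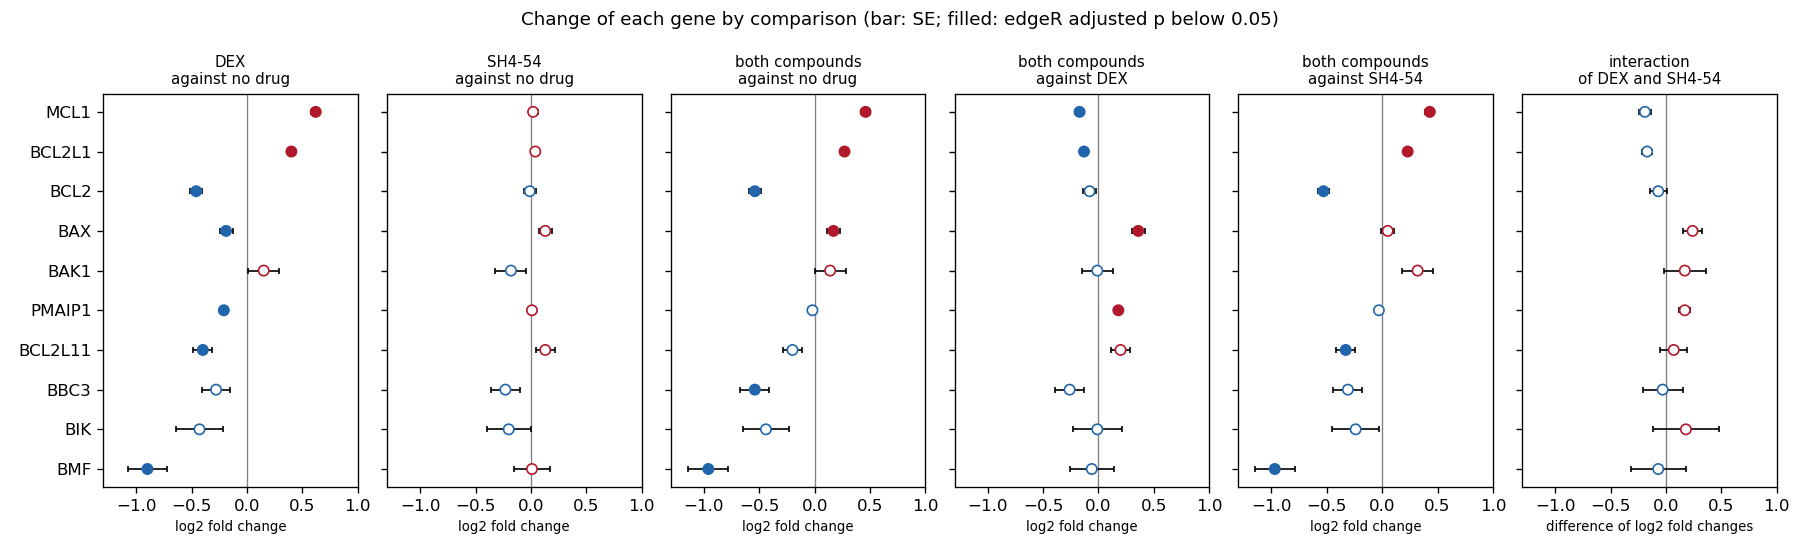
Log2 fold change of each member (horizontal axis) in 5 comparisons and its interaction in a last panel, with SE bars, and filled points where the edgeR adjusted p is below 0.05. MCL1 and BCL2L1 lie to the right and BCL2 and BMF to the left in each of the 3 comparisons that add DEX, and no point is filled for SH4-54 against no drug or for the interaction.

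With both compounds against no drug, 3 members rose (MCL1, BCL2L1 and BAX) and 3 fell (BCL2, BBC3 and BMF), while 21.1% of all genes rose and 21.6% fell. Against SH4-54 alone, 2 members rose with both compounds (MCL1 and BCL2L1) and 3 fell (BCL2, BCL2L11 and BMF), with 20.1% and 20.3% of all genes. Against DEX alone, 2 members rose with both compounds (BAX and PMAIP1) and 2 fell (MCL1 and BCL2L1), with 13.0% and 13.5% of all genes. These comparisons share groups, so their values are set side by side and are not independent of one another.

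The 4 members that differed between both compounds and DEX alone had each moved the other way with DEX. MCL1 and BCL2L1 rose with DEX and were lower with both compounds than with DEX, and PMAIP1 and BAX fell with DEX and were higher with both compounds. The pair of contrasts shares the DEX wells, which by itself favours opposite signs. The test of the difference is the interaction, the effect of DEX with SH4-54 minus its effect without it. In that test 0 members rose and 0 fell, against 2.44% and 1.46% of all genes, and 4 had an unadjusted p below 0.05, as had 21.1% of all genes. The interaction was -0.17 ± 0.046 for BCL2L1 (edgeR adjusted p = 0.0535), 0.17 ± 0.051 for PMAIP1 (edgeR adjusted p = 0.0697), -0.19 ± 0.056 for MCL1 (edgeR adjusted p = 0.0739) and 0.24 ± 0.083 for BAX (edgeR adjusted p = 0.119). The other 6 had edgeR adjusted p from 0.66 to 0.952.

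**Figure D3:**
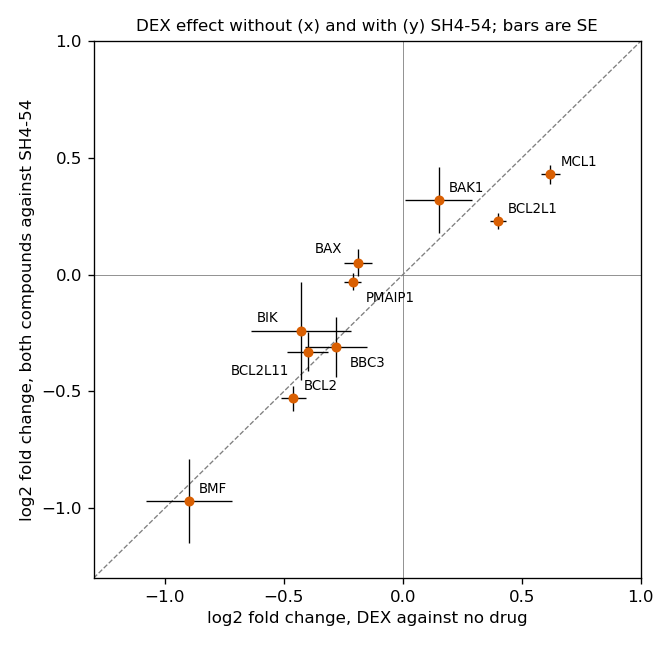
Log2 effect of DEX with SH4-54 present (vertical axis, both compounds against SH4-54) against its effect without it (horizontal axis, DEX against no drug), with SE bars and the line of equal effect. MCL1 (0.43 and 0.62) and BCL2L1 (0.23 and 0.40) lie below the line, BAX and PMAIP1 above it, and BCL2 and BMF near it.

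The interaction calls depended on the setting. The DESeq2 Wald test called BCL2L1 (adjusted p = 0.0175) and MCL1 (adjusted p = 0.0206), and edgeR without the count filter called the same pair (0.0487 and 0.0388). Without combination replicate 3, all 4 genes passed in edgeR, with adjusted p of 0.0185 for BCL2L1, 0.00202 for MCL1, 0.0394 for PMAIP1 and 0.0314 for BAX. Without DEX replicate 2, BCL2L1 passed (edgeR adjusted p = 0.0324). Combination replicate 3 had the highest MCL1 of its group and also the highest FKBP5, 271 CPM against 202 and 181 CPM in the other combination wells, and the part of that response in the member values was not tested.

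Ratios taken within a library do not depend on its scaling. Read counts of PMAIP1 to MCL1 stood at 0.414, 0.462 and 0.381 with both compounds, 0.318, 0.332 and 0.331 with DEX, 0.547, 0.591 and 0.596 with SH4-54 and 0.586, 0.588 and 0.572 without drug. The combination wells lay between the DEX wells and the wells without DEX, with no overlap. BAX to BCL2 stood at 2.92, 3.01 and 2.65 with both compounds, 2.15, 2.05 and 2.12 with DEX, 1.81, 1.95 and 2 with SH4-54 and 1.71, 1.7 and 1.83 without drug. That ratio was highest in the combination wells, above every other well. BCL2 was the lowest of the survival genes, at 16.2 CPM with both compounds, against 216 CPM for BCL2L1 and 484 CPM for MCL1. Ratios of BAX to MCL1 or to BCL2L1 were not taken, so this order holds for BCL2 only. BCL2L11 to MCL1 averaged 0.0185 ± 0.001 with both compounds, 0.0144 ± 0.00057 with DEX, 0.0314 ± 0.00072 with SH4-54 and 0.0292 ± 0.0042 without drug. The MCL1 to BCL2L1 ratio averaged 2.24 ± 0.17, 2.31 ± 0.13, 1.94 ± 0.024 and 1.98 ± 0.064 in the same order.

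**Figure D4:**
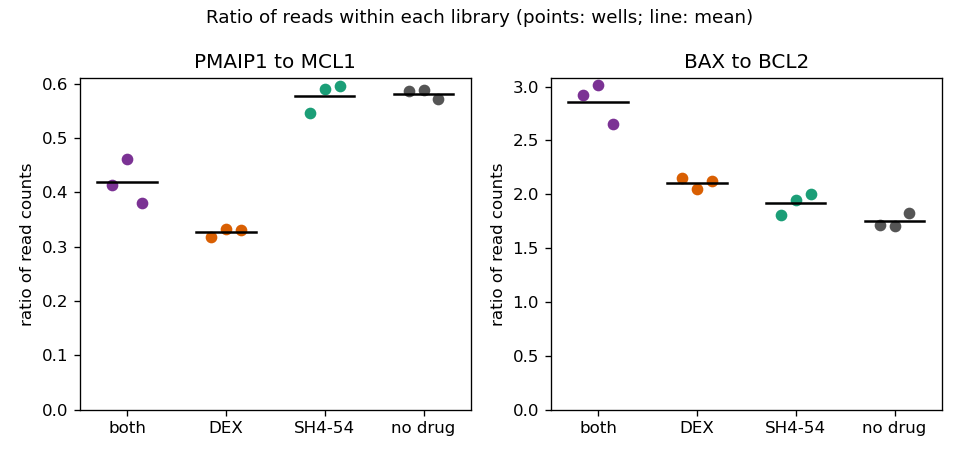
Ratio of read counts within each library (vertical axes, linear from 0) for PMAIP1 to MCL1 and BAX to BCL2, with points for wells and lines for means. BAX to BCL2 is 2.65 or more in the combination wells and at most 2.15 elsewhere.

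Levels of different genes were compared per kilobase of exon (GENCODE v29 lengths, so this is approximate for another annotation). On this scale PMAIP1 and MCL1 led and exchanged places. PMAIP1 was at 90.4, 79.6, 92.6 and 92.2 CPM per kb with both compounds, DEX, SH4-54 and no drug, and MCL1 at 111, 124, 81.9 and 80.8 CPM per kb. MCL1 was thus the highest member with DEX present and PMAIP1 without it, and the same held with the length of the principal transcript. BCL2L1 came next in every group, at 65.2, 71.2, 55.5 and 54.0 CPM per kb, and BMF was last at 0.272 to 0.54 CPM per kb. For BAX the choice of length mattered, with 15.8 CPM per kb of all exons and 51.7 CPM per kb of the principal transcript without drug.

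The genes most like the 3 members with the strongest differences among groups were found by Pearson's r of log2 CPM over the 12 libraries. For MCL1 they were STK39 (0.996), HPCAL1 (0.995) and FKBP5 (0.995). For BCL2L1 they were SERINC2 (0.981), ADCK4 (0.981) and SLC35A3 (0.979), and for BCL2 they were PWWP2A (0.991), CKAP2L (0.989) and CENPE (0.987). CENPE, a mitotic motor gene, averaged 170 CPM with both compounds, 187 CPM with DEX, 290 CPM with SH4-54 and 305 CPM without drug. The points share treatment groups, which separate wells with DEX from wells without, so these values describe a common order of groups.

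The RefSeq promoter table (GRCh38.p14, 250 bases before to 50 after each start) held 10 promoters for 8 members, with MCL1 and BIK not matched. Both strands were searched for the glucocorticoid receptor motifs AGAACA and its palindrome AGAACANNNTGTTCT, which holds it, the STAT motif TTCNNNGAA, the FOXO motif GTAAACA and the AP-1 motif TGANTCA. The 6-base receptor motif was in 0 of the 10 and in 14.8% of the 35116 promoters in the table, the 15-base one in 0 and 0.00285%, and the STAT motif in 0 and 7.66%. The FOXO motif was in 1, that of BCL2L11 (3.42% of all), and the AP-1 motif in 1, that of BBC3 (7.71%). These windows are shown because they are the 2 with a match, with the motif in capitals.
BCL2L11: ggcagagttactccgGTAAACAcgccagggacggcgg
BBC3: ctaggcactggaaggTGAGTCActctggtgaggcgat
The BCL2L11 window is chr2:111120676-111120712 on the plus strand, with the motif starting at -223 from the start site, and the BBC3 window is chr19:47232759-47232795 on the minus strand, with the motif at -113. A match is a run of letters and not a shown binding site, and no match speaks of these windows alone.

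Other genes of the pathway were described in 6 lists with DEX against no drug, where 21.9% of all genes rose and 23.2% fell. Those shares are the background of each list count below, and no list was tested against them. Of 13 other BCL2 family genes, 9 were tested, 2 rose and 1 fell, with a median of 0.02. BOK, an effector-like member, rose by 0.45 (edgeR adjusted p = 6.61e-07) and BNIP3, an atypical BH3 gene of mitophagy, by 0.22 (edgeR adjusted p = 0.000113). BCL2L12 fell by 0.32 (edgeR adjusted p = 0.0207), a call lost without DEX replicate 3 (0.106) or no-drug replicate 1 (0.114). BCL2A1, BCL2L10, HRK and BCL2L14 were too low to be tested.

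Of the 7 inhibitor of apoptosis genes, 5 were tested, 1 rose and 2 fell with DEX, with a median of -0.07. BIRC3, an ubiquitin ligase that restrains caspase-8 activation, averaged 651 CPM with DEX and 123 CPM without drug, a change of 2.41 ± 0.045 (edgeR adjusted p = 1.87e-14). BIRC5, survivin, which also acts in mitosis, averaged 149 CPM with DEX and 216 CPM without drug (change -0.53, edgeR adjusted p = 1.97e-08). BIRC2 fell by 0.18 (edgeR adjusted p = 0.0125, and 0.0648 without no-drug replicate 3). BIRC7 and NAIP were too low to be tested.

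Of 15 death receptor pathway genes, 5 rose and 6 fell with DEX, with a median of -0.10. CFLAR, which encodes the caspase-8 inhibitor FLIP, averaged 64.9 CPM with DEX and 35.8 CPM without drug (change 0.86, edgeR adjusted p = 1.92e-10). TNFRSF1A, a TNF receptor, rose by 0.91 (edgeR adjusted p = 7.43e-09) and the TRAIL receptor TNFRSF10A by 0.27 (edgeR adjusted p = 0.000273). The second TRAIL receptor, TNFRSF10B, fell by 0.30 (edgeR adjusted p = 1.63e-06), the receptor TNFRSF21 by 0.58 (edgeR adjusted p = 9e-08) and the ligand TNFSF10, TRAIL itself, by 0.68 (edgeR adjusted p = 0.00157). Of the TRAIL decoy receptor genes, TNFRSF10D had a change of -0.10 (edgeR adjusted p = 0.0543). TNFRSF10C was among the 6 falls at 0.295 CPM with DEX and 0.54 CPM without drug (change -0.87, edgeR adjusted p = 0.0497). That call was lost in 13 of 18 alternatives (edgeR or DESeq2 adjusted p up to 0.203), among them the fits without any 1 of the DEX wells, no-drug replicate 1 or 2, combination replicate 2 or 3, or SH4-54 replicate 1 or 3.

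Of 15 apoptosome and caspase genes, 1 rose and 1 fell with DEX, with a median of 0.04, and 4 passed without no-drug replicate 3 or without combination replicate 2. DIABLO, an antagonist of the inhibitor proteins, rose by 0.22 (edgeR adjusted p = 0.000219) and APAF1, the apoptosome scaffold, fell by 0.28 (edgeR adjusted p = 0.000131). Of 13 regulators and partners of BCL2 family proteins, 2 rose and 3 fell, with a median of -0.05. The mitochondrial channel gene VDAC1 rose by 0.27 (edgeR adjusted p = 0.000175) and the chaperone partner BAG3 by 0.32 (edgeR adjusted p = 0.000401), while BAG1 fell by 0.28 (edgeR adjusted p = 0.000135) and TMBIM6 by 0.16 (edgeR adjusted p = 0.000648). BTRC also passed (change -0.12, edgeR adjusted p = 0.0258), and its call was lost in 6 of 19 alternatives. Among them were the fits without DEX replicate 2 (0.129), no-drug replicate 1 (0.0543) or no-drug replicate 2 (0.0788), and the DESeq2 Wald test (0.101). VDAC2 did not pass (change 0.18, edgeR adjusted p = 0.052). It passed in 10 of 19 alternatives, with edgeR or DESeq2 adjusted p from 0.000173 to 0.133. Of 12 transcription factors of BH3-only genes, 11 were tested, 1 rose and 2 fell, with a median of -0.12. MYC rose by 0.74 (edgeR adjusted p = 2.44e-10), the stress factor DDIT3 fell by 0.48 (edgeR adjusted p = 0.000325) and E2F1 by 0.13 (edgeR adjusted p = 0.00776).

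**Figure D5:**
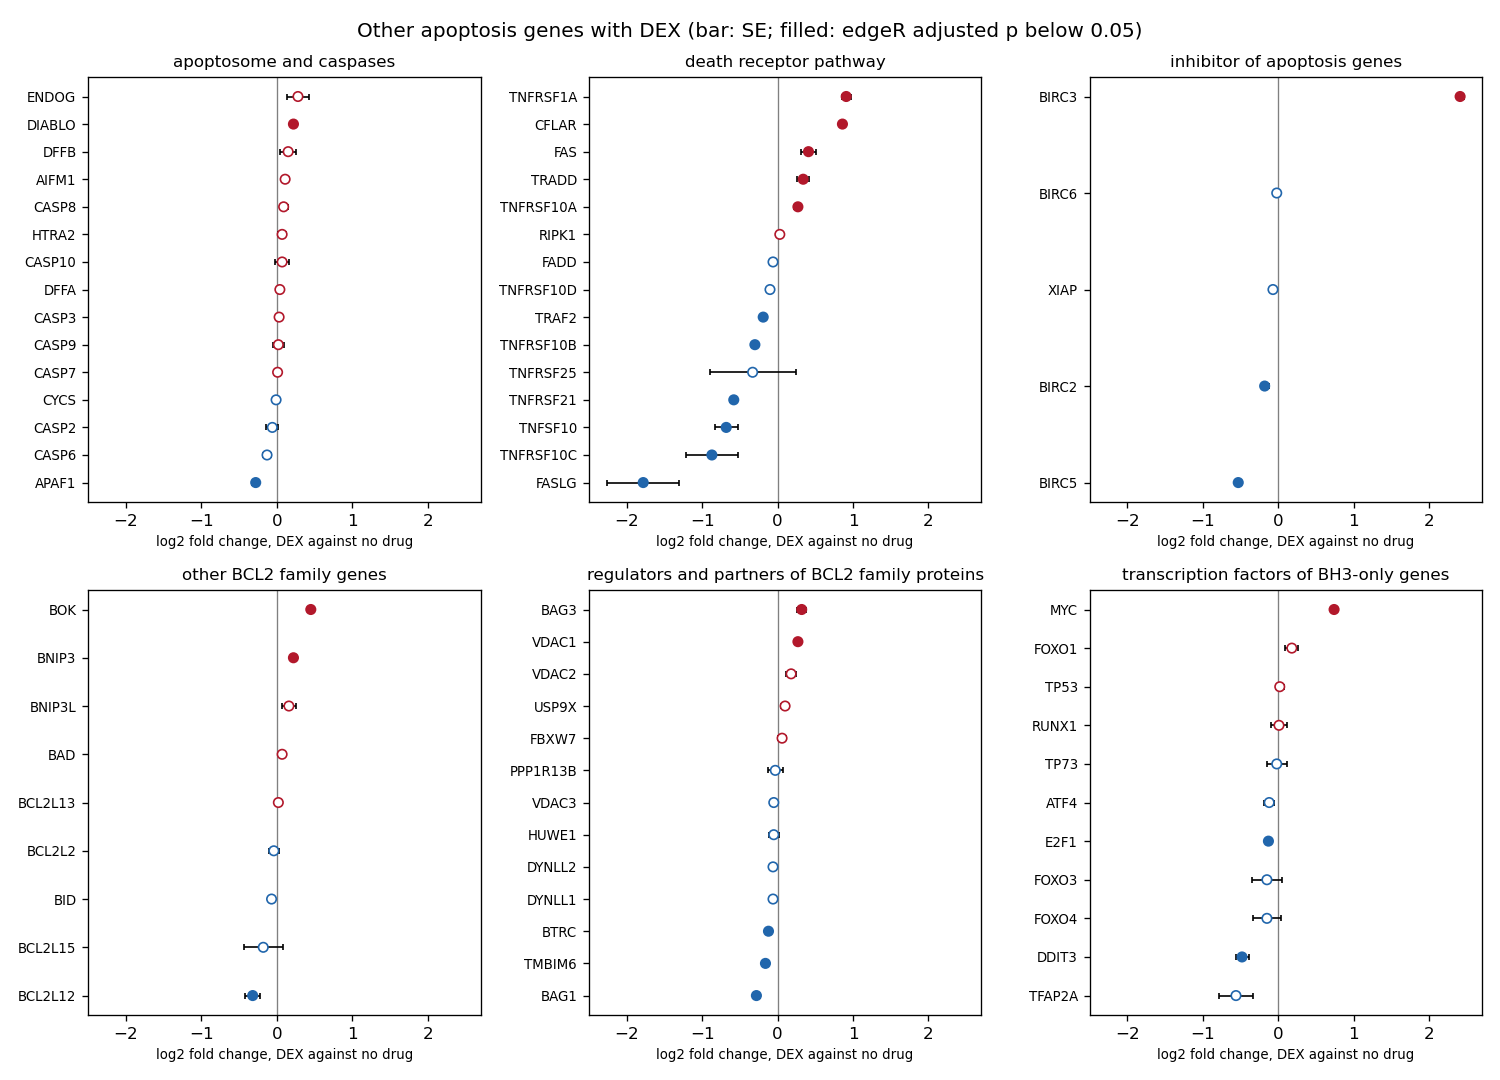
Log2 fold change with DEX against no drug (horizontal axis) of every tested gene of the 6 lists, 1 panel per list and 1 row per gene, with SE bars and filled points where the edgeR adjusted p is below 0.05. BIRC3 lies farthest right at 2.41 and FASLG, a low gene at 0.137 CPM with DEX and 0.478 CPM without drug, farthest left at -1.78.

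With SH4-54 alone against no drug, 0.268% of all genes rose and 0.331% fell. BIRC3 was the single gene of the 6 lists to pass there, at 0.26 ± 0.044 (edgeR adjusted p = 0.0109). Its call was lost without no-drug replicate 1 (0.061), no-drug replicate 2 (0.0852) or SH4-54 replicate 2 (0.0641). The TRAIL decoy receptor gene TNFRSF10D also passed without combination replicate 3 (edgeR adjusted p = 0.0476, against 0.0946 with it). With both compounds against DEX alone, where 13.0% of all genes rose and 13.5% fell, the other BCL2 family genes had 0 rises and 2 falls, BNIP3 (change -0.17, edgeR adjusted p = 0.00293) and the mitophagy gene BNIP3L (change -0.39, edgeR adjusted p = 0.00951). The inhibitor of apoptosis genes had 3 rises and 0 falls, led by BIRC2 at 0.34 (edgeR adjusted p = 0.000453). BIRC3 averaged 722 CPM with both compounds and 651 CPM with DEX, a rise that was lost without DEX replicate 1, DEX replicate 3 or combination replicate 1 (edgeR adjusted p up to 0.0873). The rise of BIRC5 was 0.11 (edgeR adjusted p = 0.0383), and it was lost in 12 of 19 alternatives (adjusted p up to 0.179), among them the fits without DEX replicate 1 or 2, combination replicate 1 or 2, no-drug replicate 2, or SH4-54 replicate 2 or 3. The death receptor genes had 1 rise, the adaptor TRAF2 (0.26, edgeR adjusted p = 0.000681), and 5 falls, led by the kinase gene RIPK1 (-0.17, edgeR adjusted p = 0.00332), TNFRSF1A (-0.27, edgeR adjusted p = 0.00354) and CFLAR (-0.15, edgeR adjusted p = 0.00872). Among the partners, 3 rose and 0 fell, led by DYNLL2 (0.30, edgeR adjusted p = 0.000454), a dynein light chain that binds BMF protein, and BAG3 (0.31, edgeR adjusted p = 0.00171). Among the transcription factors, DDIT3 (0.43, edgeR adjusted p = 0.00267) and E2F1 (0.18, edgeR adjusted p = 0.00221) rose and 0 fell. The apoptosome and caspase genes had 1 rise, the nuclease inhibitor DFFA (0.17, edgeR adjusted p = 0.0058), and 2 falls. Several of these counts moved when a library was left out: the apoptosome genes had 1 call without DEX replicate 2, combination replicate 1 or combination replicate 2 and 5 without combination replicate 3, and the inhibitor genes had 1 without DEX replicate 1 or combination replicate 1. The partners had 6 without combination replicate 3, and the transcription factors 4 without SH4-54 replicate 1.

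The rises and falls with both compounds against no drug, where 21.1% and 21.6% of all genes rose and fell, were 1 and 0 of 9 other family genes, 3 and 2 of 15 apoptosome genes, 2 and 2 of 5 inhibitor genes, 4 and 6 of 15 death receptor genes, 4 and 2 of 13 partners and 2 and 1 of 11 transcription factors. With both compounds against SH4-54 alone, with 20.1% and 20.3% of all genes, they were 2 and 0, 3 and 5, 1 and 3, 4 and 6, 4 and 3, and 1 and 0 for the same lists. APAF1 and TNFRSF10B were among the falls and CFLAR, MYC and BIRC3 among the rises of both comparisons. Against no drug, the calls among the inhibitor genes numbered 2 without combination replicate 1, combination replicate 2 or no-drug replicate 2, the transcription factor calls 1 without combination replicate 2, combination replicate 3 or no-drug replicate 2, and the other family calls 2 without combination replicate 3. Against SH4-54, the other family calls numbered 1 without combination replicate 2, the apoptosome calls 5 without combination replicate 1 or SH4-54 replicate 3, and the transcription factor calls 2 without combination replicate 3.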

How the data were processed

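The labels' protocols give total RNA, ribosomal RNA removal and stranded libraries read as 50-cycle single ends. The table that the authors deposited holds whole-number read counts, with 26364 gene rows and 12 libraries. The submitters' processing notes name the build hg19 (GRCh37) with HISAT2 2.1.0, SAMtools and featureCounts 1.5.1. Annotation and strand setting of the counting are not stated there. Positions and lengths come from GENCODE v29 (GRCh38) by gene symbol, with no conversion between builds.

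Low genes were removed with filterByExpr in edgeR 4.0.16 (R 4.3.3, limma 3.58.1), TMM gave the scaling, and the 4 groups in 12 libraries were fitted in 1 quasi-likelihood model, which left 8 residual degrees of freedom and a median SE of 0.0636 for DEX against no drug. Each SE was derived from the change and its F statistic, and log2 CPM has a prior count of 2. Every adjusted p is Benjamini-Hochberg over the tested genes. Alternatives were DESeq2 1.42.0 and its size factors, other count filters, a fit of the compared groups only, leaving out the 10 highest genes, the replicate number as a block and each library left out. Libraries of a group differed beyond sampling noise (chi-square over its degrees of freedom 4.18 or more). Named were all members, up to 3 rises and 3 falls per list and comparison by smallest adjusted p, 7 treatment check genes, and the 3 genes nearest to each of 3 members. Outside DEX against no drug, lists are given mainly as counts. Members and lists were chosen with earlier results of these data known. One marker is not reported here.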

Additional observations from a re-analysis of the deposited data

Results flagged for a closer look

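For 4 of the 68 tested genes of the 6 pathway lists (5.88%, against 3.9% of all genes) the effect of DEX differed with and without SH4-54 by the interaction test. TRAF2, an adaptor of TNF receptors, averaged 49 CPM with both compounds, 40.7 CPM with DEX, 46.1 CPM with SH4-54 and 46.4 CPM without drug, with an interaction of 0.27 (edgeR adjusted p = 0.0257, highest 0.0762 over the alternatives). BIRC5, survivin, averaged 161, 149, 198 and 216 CPM in the same order, with an interaction of 0.23 (edgeR adjusted p = 0.0271, highest 0.0785). RIPK1, a kinase of the death receptor complex, averaged 58.3, 65.7, 66.6 and 64.3 CPM, with an interaction of -0.22 (edgeR adjusted p = 0.0288, highest 0.0821). DDIT3, a stress transcription factor, averaged 18.2, 13.5, 18.1 and 18.9 CPM, with an interaction of 0.49 (edgeR adjusted p = 0.0386, highest 0.102). Of 18 alternatives, the call was lost in 12 for DDIT3, 10 for RIPK1, 7 for TRAF2 and 6 for BIRC5. All 4 calls were lost without DEX replicate 1, DEX replicate 2 or no-drug replicate 3. Groups of 3 wells were not tested for outliers.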

How the results depend on the processing

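Over 1130 alternative values of the members' log2 changes, 0 changed direction while called, 22 passed the threshold where the main value did not and 6 lost it, all 6 of them BAX against no drug. The number of members passing ranged, leaving out each library, from 6 to 8 for DEX against no drug, 0 to 0 for SH4-54, 5 to 7 for both compounds against no drug, 4 to 4 against DEX, 5 to 7 against SH4-54 and 0 to 4 for the interaction. The 4 interaction calls came without combination replicate 3. For the interaction, DESeq2 size factors gave 1 member, the DESeq2 Wald test 2 and no count filter 2, and the cause was not tested. BBC3 also passed against SH4-54 without combination replicate 3 (0.0355) or SH4-54 replicate 1 (0.0358), and BAK1 with no count filter (0.0191).

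Over all genes, SH4-54 against no drug had 85 calls, 185 by DESeq2, 176 without the filter, 155 with the compared groups alone and 26 to 163 leaving out each library. The interaction had 553, 848 without the filter and 204 to 2046 leaving out each library, and both compounds against DEX 3770, and 2213 without combination replicate 2. The compared groups alone could not give an interaction. Replicate numbers did not pair the wells: of 18 same-numbered pairs 0 correlated above 0.1, and 12 of 36 best matches were to the own number. With a replicate block the members passing stayed at 7, 0, 6, 4, 5 and 0 and no member call changed. Depth limits BIK, BMF and BBC3 most, at means of 1.15 to 5.42 CPM.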
